A study of Mus musculus with 2 samples.

Results

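The Serpina1 family and Apoa1 were examined in single cells of the newborn mouse ovary. The 6 genes Serpina1a, Serpina1b, Serpina1c, Serpina1d, Serpina1e and Apoa1, of 31057 genes counted, were selected on measured values, namely that their UMI counts in these libraries lay mostly in granulosa cells. That contrast is therefore given as a description, with no test. Whole ovaries of CD1 mice were taken at postnatal day 2, with no treatment and no genetic change, and sequenced as 2 libraries, here replicate 1 and replicate 2. Each library pooled the ovaries of several pups of a single litter, so differences between the libraries could come from litter, dissociation or sequencing, which cannot be told apart. Filtering left 3636 cells in replicate 1, with a median of 8647 UMIs (unique molecular identifiers, each standing for 1 captured transcript). It left 4371 cells in replicate 2, with a median of 6202 UMIs. The libraries shared 21 cell barcodes, 16 of them among the kept cells.

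The Serpina1 genes encode mouse forms of alpha-1-antitrypsin, a secreted serpin that traps neutrophil elastase and other serine proteases by acting as a suicide substrate. Apoa1 encodes apolipoprotein A-I, the main protein of high-density lipoprotein (HDL), which takes up cholesterol from cells and activates the enzyme that esterifies it. Both are best known as plasma proteins made by liver, and apolipoprotein A-I also by intestine. Granulosa cells surround the oocyte, nourish it and later make steroids, and in the newborn ovary most lie in primordial follicles while a first wave of follicles already grows.

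Cells were sorted by marker UMIs into granulosa (Foxl2, Fst, Wnt6), interstitial (Col1a2, Dcn), mesothelial (Upk3b), germ (Ddx4, Dazl, Ooep), endothelial (Pecam1, Cdh5) and immune (Ptprc, Fcer1g) cells, and cells that passed several gates were set aside. The granulosa gate held 1618 cells of replicate 1 and 556 of replicate 2. In these cells, 8 granulosa markers that the gate did not use, among them the anti-Müllerian hormone receptor Amhr2 and the nuclear receptor Nr5a2, summed to 2643 and 2745 UMIs per 1000000 UMIs (CPM), against 92.5 and 144 CPM in interstitial cells. In immune cells they summed to 1089 and 1361 CPM. Unsupervised clustering placed 2125 of the 2174 gated granulosa cells in 6 clusters with granulosa markers. Cells that passed both the Upk3b and the granulosa gate left 8 and 24 cells in the mesothelial gate, so mesothelial values below count cells past these 2 gates alone as mesothelial (110 and 177 cells), a choice made after seeing the overlap. The 8 granulosa markers summed to 1039 and 1317 CPM in these mesothelial cells. They thus set granulosa cells apart less from mesothelial and immune cells than from interstitial cells. Sums of the other gated cells below, and the tests on them, keep the mesothelial gate of 8 and 24 cells and leave the moved cells out.

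The 5 Serpina1 genes lie in tandem on the minus strand of chromosome 12 (GRCm38, GENCODE vM21), within chr12:103728156-103958975, a stretch of 231 kb that holds no other protein-coding gene. Between or across them lie 6 unprocessed pseudogenes, which are decayed gene copies, and the gene model of Serpina1b spans that of Serpina1d. Serpina1c is overlapped by the antisense gene B430119L08Rik on the plus strand. Apoa1 lies on chromosome 9, at chr9:46228580-46230466 on the plus strand.

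The start-site windows of the family carry a run of 59 bases that is identical in all 5 genes. It begins 55 to 66 bases before the annotated start site in Serpina1a, Serpina1b, Serpina1c and Serpina1d, and 117 bases before it in Serpina1e. The first 50 bases of it are shown in capitals because genes with levels as unlike as those of Serpina1b and Serpina1e below share them. The 30 bases before it are in lower case, read 5′ to 3′ on the minus strand from RefSeq promoter windows of GRCm38.p6, at chr12:103863630-103863709 for Serpina1a, chr12:103738205-103738284 for Serpina1b, chr12:103904967-103905046 for Serpina1c, chr12:103773639-103773718 for Serpina1d and chr12:103956965-103957044 for Serpina1e.
Serpina1a: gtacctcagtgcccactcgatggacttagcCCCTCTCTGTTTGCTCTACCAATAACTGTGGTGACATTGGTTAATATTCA
Serpina1b: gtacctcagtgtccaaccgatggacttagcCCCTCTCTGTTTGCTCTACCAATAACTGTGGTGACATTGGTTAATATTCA
Serpina1c: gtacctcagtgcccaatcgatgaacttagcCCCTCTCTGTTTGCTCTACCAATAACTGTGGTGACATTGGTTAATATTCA
Serpina1d: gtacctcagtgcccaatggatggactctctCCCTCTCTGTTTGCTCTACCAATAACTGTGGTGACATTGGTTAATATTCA
Serpina1e: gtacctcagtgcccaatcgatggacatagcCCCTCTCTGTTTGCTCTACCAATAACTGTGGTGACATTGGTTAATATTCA

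Of 32851 RefSeq promoter windows (250 bases before to 50 after the start site, both strands searched), the 59-base run was in these 5 alone, 0.0152%. The letters TTGCNNAA, a CEBP site, were in the windows of Serpina1a, Serpina1b, Serpina1d and Serpina1e and in 10.8% of all windows. TCAAGGNCA, an NR5A site, was in 1.62% of all windows, a direct repeat of nuclear receptor half-sites in 0.381% and the forkhead site GTAAACA in 3.65%, and none of the 6 members' windows held them. The letters TATAAA of a TATA box, in 13.6% of all windows, were not in those of the members either.

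The likeness of the paralogs bears on every count below, since the libraries were read from the 3′ end. Over the last 500 bases of the transcripts, the 10 pairs of Serpina1 genes were 93.8% to 96.4% identical. Of 100-base windows there, 82.5% were found in no other gene for Serpina1a, which shared the rest with Serpina1c and the pseudogene Gm8893, and 98.8% for Serpina1b, 90.3% for Serpina1c, 97.3% for Serpina1d and all of them for Serpina1e and Apoa1. These shares are of the reference transcripts, and the gene copies of the CD1 mice were not examined. A read from a shared window is dropped or could be placed on the wrong copy, so the split of the family among its genes is less certain than its sum, called the Serpina1 family below.

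Serpina1 family RNA was far higher in granulosa cells than in the other gated cells of both libraries, at a level that differed 8.10-fold between them. The family had 5483 UMIs (286 CPM) in granulosa cells of replicate 1 and 239 UMIs (35.3 CPM) in those of replicate 2. In the other gated cells it had 29 UMIs (1.26 CPM) and 5 UMIs (0.167 CPM). The level in granulosa cells was thus 227-fold that in the other cells in replicate 1 (95% interval 158 to 339) and 212-fold in replicate 2 (89.5 to 658), where intervals throughout are exact and cover counting error only. The other gated cells enter these folds and the tests on them as a sum of UMIs, in which deep germ cells weigh most. In interstitial cells alone the family was at 1.16 CPM in replicate 1 and 0.403 CPM in replicate 2.

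Apoa1 showed the same restriction with much closer libraries. It had 1411 UMIs (73.6 CPM) in granulosa cells of replicate 1 and 325 UMIs (48.0 CPM) in those of replicate 2. The other gated cells held 14 UMIs (0.610 CPM) and 17 UMIs (0.567 CPM), and the folds were 121 (71.7 to 221) and 84.7 (52.1 to 147). In interstitial cells alone Apoa1 was at 1.29 and 1.21 CPM, above the level of that sum in both libraries. Counts per cell, which separate the number of cells with the RNA from its amount, follow below.

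Within the family, 2 genes carried most of the signal. Serpina1b had 2795 and 114 granulosa UMIs in replicates 1 and 2, and Serpina1a had 2251 and 101. Serpina1d followed with 358 and 16, Serpina1c with 77 and 7, and Serpina1e with 2 and 1. Serpina1e was at or below the limit that a count of 0 allows, 3 UMIs, so its expression was not detectable at this depth. The order of the other 4 genes was the same in both libraries.

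The makeup of the family was alike in the libraries although its level was not. Serpina1b gave 51.0% (49.6% to 52.3%) of family UMIs in replicate 1 and 47.7% (41.2% to 54.2%) in replicate 2. Serpina1a gave 41.1% (39.7% to 42.4%) and 42.3% (35.9% to 48.8%). The shares of Serpina1d were 6.53% and 6.69%, and those of Serpina1c 1.40% and 2.93%, each pair with overlapping intervals. Serpina1b stood above Serpina1a beyond counting error in replicate 1 alone. Fewer 3′ windows were found in no other gene for Serpina1a than for Serpina1b (82.5% against 98.8%). The part of such lost or misplaced reads in this order was not tested.

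**Figure D1:**
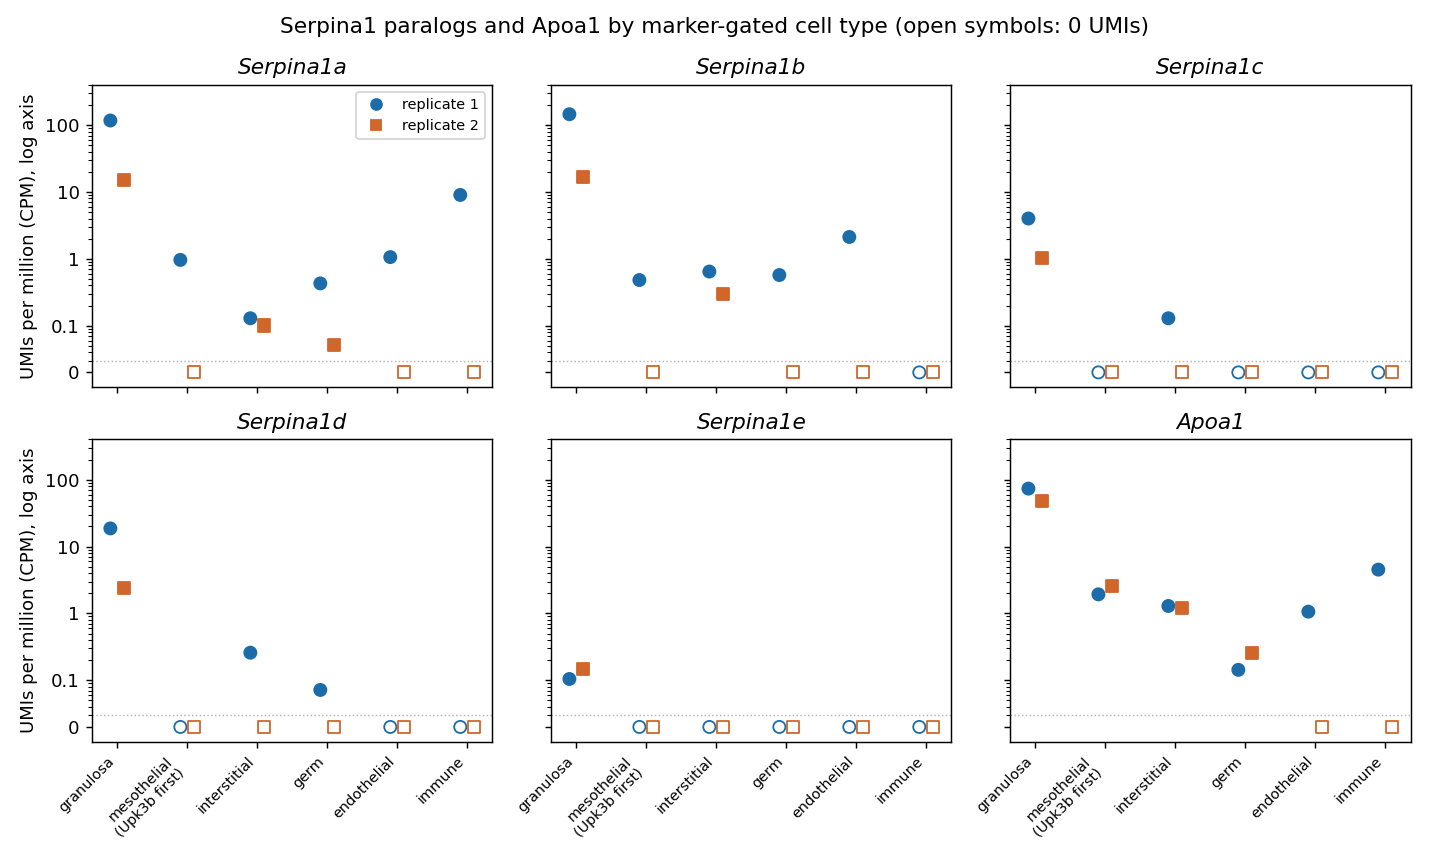
Level of each gene in each marker-gated cell type, in CPM on a log axis, with a circle for replicate 1 and a square for replicate 2 and open symbols for 0 UMIs. Granulosa cells are the highest class for Serpina1a, Serpina1b, Serpina1c, Serpina1d and Apoa1 in both libraries, and Serpina1e has 2 and 1 UMIs there.

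Outside granulosa cells the counts were a few UMIs per class. Interstitial cells, the fibroblast-like cells between follicles, had 10 and 12 Apoa1 UMIs and 9 and 4 family UMIs in 1122 and 1841 cells. Mesothelial cells, the surface lining, had 4 and 8 Apoa1 UMIs (1.93 and 2.55 CPM) and 3 and 0 family UMIs. Germ cells had 2 and 5 Apoa1 UMIs in 196 and 512 cells, at median depths of 77224 and 40439 UMIs per cell.

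Germ cells of replicate 1 had 15 family UMIs (1.07 CPM), in 6.63% of cells (3.58% to 11.1%), and those of replicate 2 had 1. Endothelial cells had 1 and 0 Apoa1 UMIs and 3 and 0 family UMIs, and immune cells 1 and 0 Apoa1 UMIs and 2 and 0 family UMIs. In no other gated class did Apoa1 or the family have more than 15 UMIs in a library. Free RNA released by broken cells gives such counts in all classes, and its part in them was not tested; Apoa1 had 0.257 and 1.36 UMIs per family UMI in granulosa cells and 0.483 and 3.40 in the other cells.

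Most hepatocyte markers were at or near 0 in granulosa cells, with Ahsg as the main exception at 183 and 44 UMIs. Of 10 markers, Afp, Ttr, Fga, Fgb, Fgg and Apob, which encode alpha-fetoprotein, transthyretin, the fibrinogen chains and apolipoprotein B, had 0 UMIs in granulosa cells of both libraries. Alb, the albumin gene, had 1 and 3 UMIs, Serpinc1 had 13 and 0, and Rbp4 had 17 and 5. The whole list summed to 11.2 and 7.68 CPM, of which the fetuin gene Ahsg made up 9.55 and 6.50 CPM, and it was at 106 and 83.7 CPM in interstitial cells.

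Per cell, more granulosa cells of replicate 1 held family RNA than Apoa1 RNA, while in replicate 2 more held Apoa1. At least 1 family UMI was seen in 52.7% (50.2% to 55.1%) of granulosa cells of replicate 1 and 13.8% (11.1% to 17.0%) of those of replicate 2, against 1.91% and 0.163% of other gated cells. For Apoa1 the shares were 46.2% (43.8% to 48.7%) and 31.1% (27.3% to 35.1%), against 0.989% and 0.652%. Median depth was 9860 and 9168 UMIs in granulosa cells and 6752 and 4896 in the others. With each cell thinned to 2000 UMIs, which left out 3 and 4 granulosa cells, the family shares were 27.6% and 3.99% and those of Apoa1 13.9% and 8.15%.

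Cells with high counts were more frequent for the family, whose mean count per cell was also higher in replicate 1. In replicate 1, 193 granulosa cells (11.9%) had 10 or more family UMIs, up to 49, and held 62.4% of all family UMIs. In replicate 2, 6 cells (1.08%) did, up to 17, and held 31.4%. For Apoa1, 3 and 2 cells had 10 or more UMIs, with maxima of 10 and 11. The 162 cells with the most UMIs of each held 56.6% of family UMIs and 46.2% of Apoa1 UMIs in replicate 1, and the 56 such cells of replicate 2 held 91.2% and 59.7%. Low counts alone raise such shares, as 77 of 556 granulosa cells of replicate 2 had any family UMI. The shares therefore cannot show how evenly either RNA was spread over cells. The mean in cells with a UMI was 6.44 and 3.10 for the family and 1.89 and 1.88 for Apoa1.

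**Figure D2:**
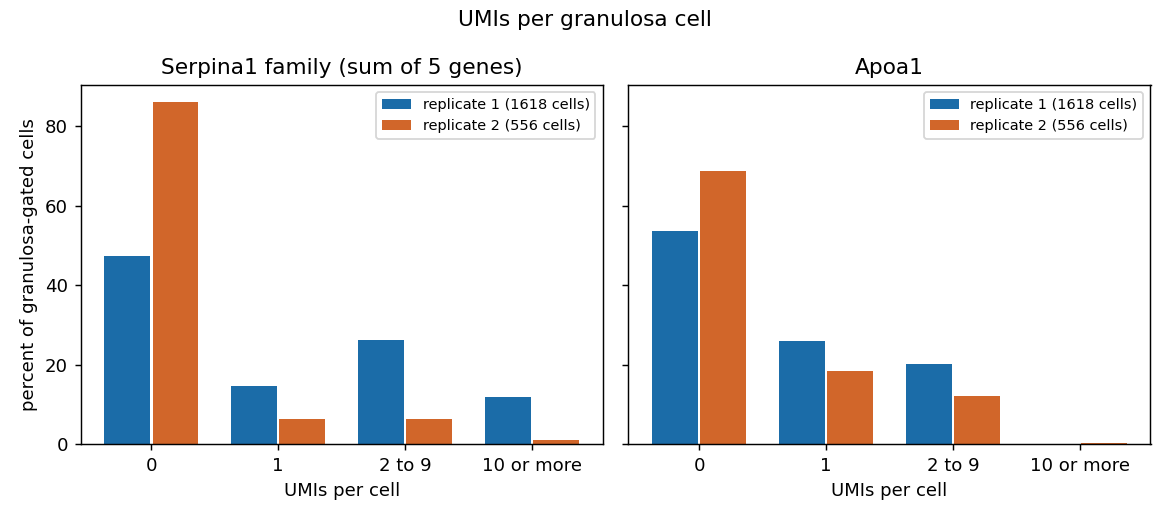
Percent of granulosa-gated cells with 0, 1, 2 to 9 and 10 or more UMIs of the Serpina1 family and of Apoa1, with 1 bar per library. Cells with 10 or more family UMIs make up 11.9% of replicate 1 and 1.08% of replicate 2, while Apoa1 has hardly any such cells in either library.

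Serpina1b was found more often in granulosa cells with Serpina1a than in those without it. With granulosa cells thinned to 4000 UMIs, Serpina1b was seen in 45.2% of cells with Serpina1a and in 17.6% of cells without it in replicate 1, and in 19.0% (4 of 21) and 2.77% in replicate 2. Reads placed on the wrong copy would also put both genes in 1 cell, and their part was not tested. Apoa1 and the family were not linked in this way in replicate 1, where 22.5% of family-positive and 22.6% of family-negative cells had Apoa1. In replicate 2 the shares were 21.1% (8 of 38) and 11.5%.

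The libraries differed more in Serpina1 RNA than in nearly any other granulosa transcript. Among 6110 genes with a mean of 20 CPM or more over granulosa cells of both libraries and a UMI in each, the median log2 ratio of replicate 1 over replicate 2 was 0.054. Serpina1b was 8.66-fold and Serpina1a 7.87-fold higher in replicate 1, the second and the third highest ratios of all, after Dynlt1f and before the transcription factor gene Myc. Only 5 genes, 0.0818%, were over 4-fold higher in replicate 1, and 10, 0.164%, were over 4-fold lower. Serpina1d, under that level, had a ratio of 7.90 and Serpina1c of 3.88. Apoa1 was 1.53-fold higher, rank 257. With 1 library on each side these ratios have no test. Markers of other cells in the granulosa gate also differed, with erythroid markers at 137 and 1026 CPM and mesothelial markers at 610 and 1330 CPM, and their part in the difference was not tested.

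**Figure D3:**
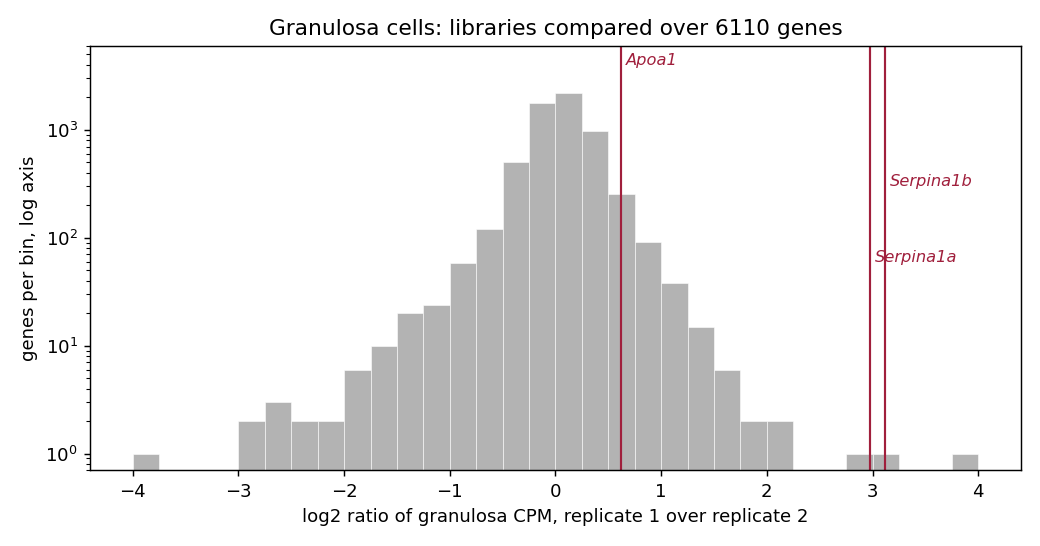
Number of genes (log axis) by log2 ratio of granulosa CPM in replicate 1 over replicate 2, for 6110 genes, with values beyond 4 in the outer bins. Serpina1a and Serpina1b lie at the right edge, at 2.98 and 3.11, and Apoa1 at 0.62, inside the main body.

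Family RNA was higher in replicate 1 within each granulosa cluster too, by less than over all granulosa cells. Clusters were drawn with the 6 genes left out of the genes used, and are named here by leading genes. The highest family level was in a cluster led, after Serpina1b and Serpina1a themselves, by Gm37350 and Ly6g6e, with 616 CPM in 506 cells of replicate 1 and 175 CPM in 28 cells of replicate 2. Its leading genes Gm37350 and Myc were, like Serpina1a and Serpina1b, among the 5 genes over 4-fold higher in granulosa cells of replicate 1. How far this cluster reflects the difference between the libraries was not tested. The lowest was in a cluster led by Ly6d and Crygb, with 10.52 CPM (14 UMIs) in 132 cells and 1.56 CPM (4 UMIs) in 242 cells. Replicate 1 exceeded replicate 2 by 3.28-fold to 6.75-fold over the 6 clusters, against 8.10-fold over all gated granulosa cells, while the Apoa1 ratios ran from 1.07 to 1.66. The cluster values cover all kept cells of a cluster, gated as granulosa or not. In gated cells grouped by Calb1 UMIs, as below, the family ratio was 9.49 at 0 UMIs, 2.84 at 1 and 6.12 at 2 or more. Grouped by Amh and Inhbb UMIs in the same way, it was 7.82, 10.53 and 8.40. The ratio was thus below 8.10 in each cluster but not in each of these marker groups.

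Apoa1 followed another order of clusters. Its highest levels were in the 2 clusters led by Amh and by Hsd3b1, an enzyme of steroid synthesis, with 121 and 120 CPM in replicate 1 and 113 and 88.6 CPM in replicate 2. In those clusters the family was at 80.2 and 82.3 CPM in replicate 1 and 14.1 and 22.4 CPM in replicate 2, well under its level in the Gm37350 and Ly6g6e cluster. Both Apoa1 and the family were lowest in the Ly6d and Crygb cluster, where Apoa1 was at 14.3 and 12.9 CPM.

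**Figure D4:**
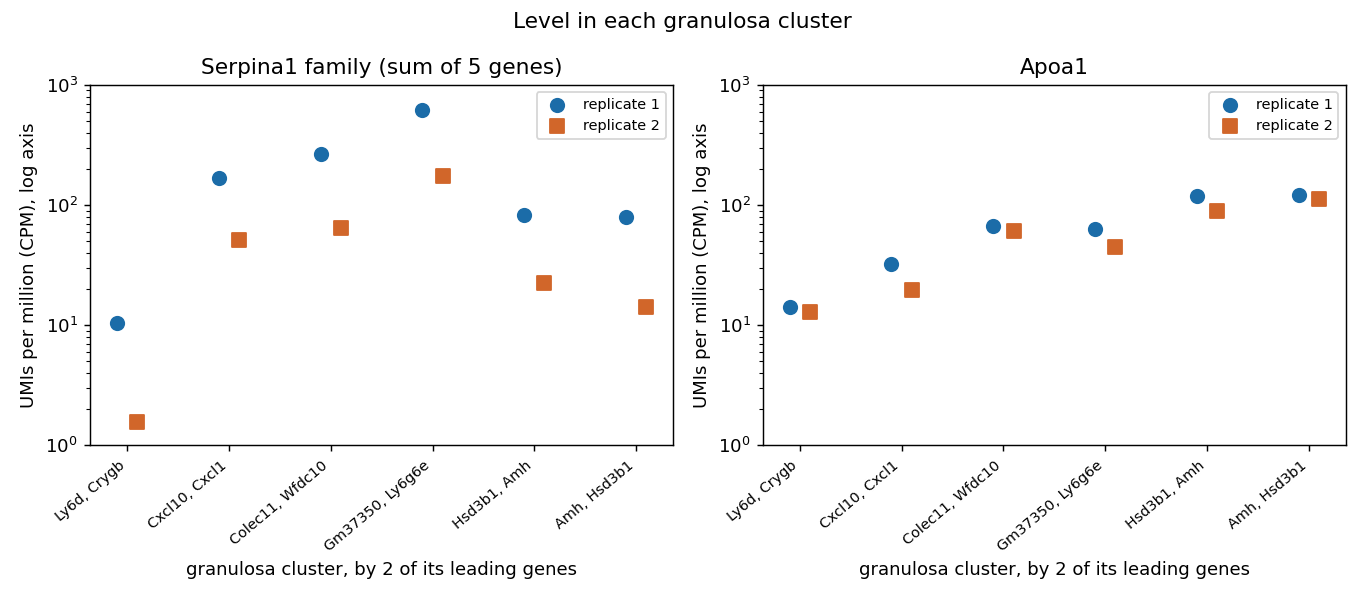
Level of the Serpina1 family (left) and Apoa1 (right) in the 6 granulosa clusters, in CPM on a log axis, by library. The family peaks in the cluster led by Gm37350 and Ly6g6e (616 and 175 CPM) and Apoa1 in those led by Amh and Hsd3b1 (up to 121 and 113 CPM).

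Genes whose RNA went with that of the members in single granulosa cells were ranked by the lower of the 2 libraries' log2 ratios of CPM in cells with a member UMI over cells without, as a description. Cells with a UMI were also deeper, with medians of 10499 and 14162 UMIs for the family. For the family, of 5735 genes, the first 8 were Ly6g6e, Basp1, Fgl2, Nr4a1, Grb14, Jak2, Itih5 and Tram2. Ly6g6e had log2 ratios of 1.22 and 1.57 in replicates 1 and 2, and Nr4a1, an immediate early nuclear receptor gene, of 0.97 and 1.201. Hsd3b1 went the other way, with −1.29 and −1.61.

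For Apoa1, of 5734 genes, the first 8 were Fgfbp3, Sel1l3, Inhbb, Siglece, Hsd3b1, Oaf, Amh and Hsd17b1. Of these, Amh, the inhibin and activin subunit gene Inhbb, Hsd3b1 and the estrogen-forming enzyme gene Hsd17b1, belong to growing-follicle hormone production. Hsd3b1 had log2 ratios of 1.02 and 2.31 for Apoa1, Amh 0.98 and 2.03, and Fgfbp3 1.15 and 1.21. Ranks 9 and 10 went to Tpx2 (1.61 and 0.96) and Spc25 (1.52 and 0.96), which are known to act in mitosis. Against the family, Amh had −0.50 and −0.14.

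Granulosa cells were then split by Amh and Inhbb, whose protein products, anti-Müllerian hormone and the beta-B subunit of inhibin and activin, mark follicles that have begun to grow. Cells with 2 or more UMIs of the pair (531 and 112 cells) were set against those with 0 (808 and 367), with UMIs summed per library and tested across all genes with edgeR's quasi-likelihood test. The test called 481 genes higher, 3.99% of 12042 tested, and 358 lower, 2.97%. All p-values in these splits are Benjamini-Hochberg adjusted over all genes tested. Both this split and the Calb1 split below were chosen with earlier results of these data known. The p-values of the members are therefore not independent of those results.

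Apoa1 was the only member called in that test. It was at 105 CPM in Amh- and Inhbb-positive cells and 47.8 CPM in negative cells of replicate 1, and at 95.3 and 27.1 CPM in replicate 2. Positive cells were higher in both libraries, 2.20-fold and 3.52-fold. With 2 libraries the p-values below cover no spread beyond these libraries, and edgeR estimates that spread in part from the other genes tested. Small p-values are therefore not evidence from these libraries' Apoa1 values alone. The fitted log2 difference was 1.41 ± 0.25 (SE, n = 2 libraries; adjusted p = 0.0259 by edgeR), and 1.41 ± 0.17 with the library as a block (adjusted p = 3.65e-04). Positive cells were deeper, with medians of 12253 and 13551 UMIs against 8459 and 7602. With cells thinned to 2000 UMIs, Apoa1 was found in 19.0% against 9.94% of cells in replicate 1 and in 18.8% against 4.41% in replicate 2.

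The 5 named genes that rose most in the same cells were Spc25 (log2 difference 3.31), Aurkb (3.16), Hsd3b1 (3.13), Pbk (3.07) and Tpx2 (2.98). Spc25, Aurkb, Pbk and Tpx2 are known to act in mitosis, and no list of cell cycle genes was tested. A UMI of Mki67 or Top2a, markers of dividing cells, was present in 33.3% of positive and 5.94% of negative cells in replicate 1 and in 52.7% and 9.26% in replicate 2. Without such cells, an alternative chosen after this was seen, Apoa1 was at 98.4 against 47.6 CPM in replicate 1 and 63.0 against 28.5 CPM in replicate 2. The log2 difference was then 1.12 ± 0.29 with an adjusted p of 0.239 by edgeR, so the call was lost, and 1.08 ± 0.15 with the library as a block (adjusted p = 2.96e-11), the ends of the range over all alternatives. Of the genes that fell, Hbb-bs (−5.05) and Hba-a1 (−4.79) encode haemoglobin chains, whose RNA summed to 137 and 1026 CPM over granulosa cells of replicates 1 and 2; their part in the member values was not tested. The others were Ly6d (−4.30), Gng13 (−3.04) and Apoc1 (−2.94). Ly6d and Gng13 are also leading genes of the cluster where Apoa1 and the family were lowest, with 132 and 242 cells. The part of that cluster in the ratios of this split and of the Calb1 split below was not tested.

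No Serpina1 gene was called higher with Amh and Inhbb. Serpina1b was at 114 CPM in positive and 162 CPM in negative cells of replicate 1, and at 13.0 and 19.4 CPM in replicate 2. Serpina1a was at 89.8 and 123 CPM in replicate 1 and at 10.3 and 17.2 CPM in replicate 2. Both were lower in positive cells in both libraries, by less than the libraries differed from each other. Cells with 1 UMI of the pair, which the test left out, did not lie between them in replicate 1, where the family was at 376 CPM in 279 cells, against 309 CPM at 0 UMIs and 223 CPM at 2 or more. In replicate 2 the values were 35.7 CPM in 77 cells, against 39.5 and 26.5 CPM. The log2 differences were −0.43 ± 0.98 for Serpina1b and −0.39 ± 0.93 for Serpina1a (adjusted p = 0.844 and 0.852 by edgeR).

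With the library as a block, both passed the test, at −0.52 ± 0.14 (adjusted p = 0.0290) and −0.51 ± 0.15 (adjusted p = 0.0371), in a fit that called 10.6% of genes higher and 11.2% lower. Without cells that had a Mki67 or Top2a UMI, the blocked differences were −0.08 ± 0.15 for both genes, with adjusted p of 0.827 for Serpina1b and 0.840 for Serpina1a by edgeR. Over all alternatives the adjusted p of Serpina1b ran from 0.0290 and that of Serpina1a from 0.0371, both up to 0.9998. In those cells the family was at 306 against 318 CPM in replicate 1 and 30.8 against 42.0 CPM in replicate 2. Serpina1d (−0.10 ± 0.87) and Serpina1c (−0.27 ± 0.79) did not pass in either fit, and Serpina1d had opposite directions in the libraries. Serpina1e had too few UMIs to be tested in this or the next split.

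**Figure D5:**
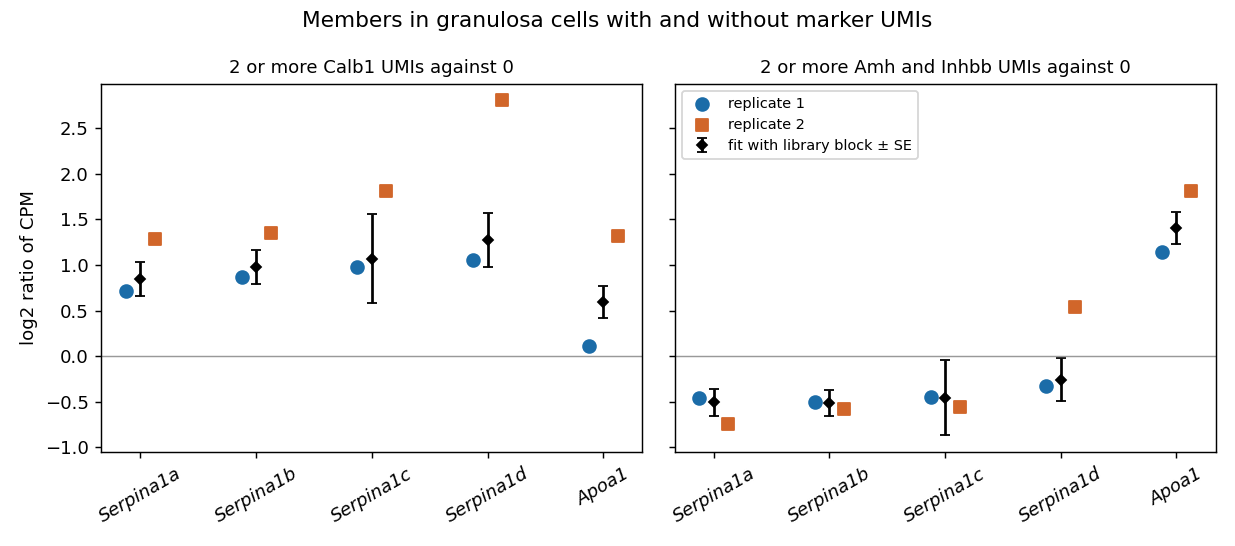
Log2 ratio of CPM between granulosa cells with and without marker UMIs for 5 genes, with a symbol for each library and a black diamond with SE for the fit with the library as a block. Calb1-positive cells (left) lie above 0 for all 5 genes in both libraries. Amh- and Inhbb-positive cells (right) lie above 0 for Apoa1 in both and below 0 for Serpina1a, Serpina1b and Serpina1c in both. Serpina1c of replicate 2 rests on 2 against 4 UMIs (left) and 1 against 3 UMIs (right).

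Calb1, the gene of the calcium-binding protein calbindin, gave a different split. It was itself a leading gene of the Gm37350 and Ly6g6e cluster, where family RNA was highest. Cells with 2 or more Calb1 UMIs (280 and 43 cells) were set against those with 0 (1153 and 487). The edgeR test called no gene, 0.0% higher and 0.0% lower of 11756, with 941 genes at an unadjusted p under 0.05; DESeq2 called 6 higher and 66 lower. With the library as a block, edgeR called 228 genes higher, 1.94%, and 435 lower, 3.7%.

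All 4 Serpina1 genes tested were higher in Calb1-positive cells in both libraries, but Serpina1c had only 2 UMIs in positive and 4 in negative cells of replicate 2. Serpina1b was at 214 CPM in positive and 117 CPM in negative cells of replicate 1, and at 28.8 and 11.3 CPM in replicate 2. Serpina1a was at 164 and 100.1 CPM in replicate 1 and at 27.6 and 11.3 CPM in replicate 2. Serpina1d was at 29.7 and 14.3 CPM in replicate 1 and at 8.78 and 1.25 CPM, 7 UMIs each, in replicate 2.

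Positive cells were thus higher in each library, but all values of replicate 2 lay below all values of replicate 1. The edgeR log2 differences of 1.01 ± 0.97 for Serpina1b, 0.90 ± 0.89 for Serpina1a, 1.42 ± 0.81 for Serpina1d and 1.27 ± 0.68 for Serpina1c had adjusted p from 0.757 to 0.921. With the library as a block, 3 of the 4 passed, Serpina1b with 0.98 ± 0.19 (adjusted p = 2.38e-05), Serpina1a with 0.84 ± 0.19 (adjusted p = 5.22e-04) and Serpina1d with 1.27 ± 0.30 (adjusted p = 0.00121). Serpina1c did not, at 1.07 ± 0.49 (adjusted p = 0.263).

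Calb1-positive cells were deeper, with medians of 12103 and 17533 UMIs against 9354 and 8395. Thinned to 2000 UMIs, family RNA was found in 38.6% against 23.5% of cells in replicate 1 and in 6.98% (of 43 cells) against 3.31% in replicate 2. Without Mki67 or Top2a cells, the 3 genes again passed in the blocked fit, with log2 differences of 0.98 for Serpina1b, 0.78 for Serpina1a and 1.06 for Serpina1d. In the same blocked fit of all granulosa cells, Sel1l3 (1.498), Fam13a (1.29), Dpysl5 (1.25), Syt7 (1.14) and Cnmd (1.12) rose most and Ly6d (−4.11), H19 (−3.25), Mt2 (−3.05), Krt18 (−2.81) and Gng13 (−2.41) fell most.

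Apoa1 differed little by Calb1 in replicate 1 and more in replicate 2, with ratios of 1.08 and 2.49. It was at 75.8 CPM in positive and 70.2 CPM in negative cells of replicate 1 and at 99.1 and 39.8 CPM in replicate 2. With cells thinned to 2000 UMIs it was found in 13.2% against 13.1% of cells in replicate 1 and in 9.30% against 7.66% in replicate 2. The log2 difference was 0.65 ± 0.29 (adjusted p = 0.662 by edgeR), 0.20 ± 0.32 with thinned cells (adjusted p = 0.9995), and 0.60 ± 0.17 with the library as a block (adjusted p = 0.0175). Without Mki67 or Top2a cells the blocked value was 0.45 ± 0.16 (adjusted p = 0.0765), and adjusted p ran from 0.0175 to 0.9995 over all alternatives.

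Set side by side, the 2 splits ordered the genes differently over the 4 groups that cross them, which leave out cells with 1 UMI of either. Family RNA was highest of the 4 in Calb1-positive cells without Amh or Inhbb UMIs, 564 CPM in 97 cells and 92.6 CPM in 13 cells. It was lowest in Calb1-negative cells with Amh or Inhbb, 154 CPM in 326 cells and 8.56 CPM, 9 UMIs, in 72 cells. Apoa1 was lowest in cells negative for both, 44.4 and 25.8 CPM, and highest in Amh- or Inhbb-positive cells, with Calb1 (86.3 and 113 CPM) or without it (112 and 88.5 CPM). Among the cells left out, those with 1 Calb1 UMI had family levels of 346 CPM in 185 cells and 121.7 CPM (47 UMIs) in 26 cells, in replicate 2 above the 67.7 CPM of cells with 2 or more. The splits use the same cells, and the difference between them was not tested.

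Genes of the same pathways were read from the test of granulosa against the other gated cells, in which 20.9% of 15441 genes were called higher and 26.0% lower (adjusted p under 0.05 and over 2-fold by edgeR), with a median log2 difference of −0.03 over all genes. Genes entered this test when counts sufficed in either group alone. For genes nearly absent from the other group, such as Apoc3, Apoa4, Ahsg, Lipg, Nr1h4, Apoc2, F2 and Itih2, passing the filter fixed the direction. The counts and medians of the lists below are partly set in that way. Of 14 other apolipoprotein genes, 8 were tested, 5 were higher and 2 lower, with a median of 2.84. The neighbours of Apoa1 on chromosome 9, Apoc3 and Apoa4, which encode apolipoproteins of triglyceride-rich lipoproteins and HDL, were among the higher ones. Apoc3 was at 6.78 and 4.73 CPM in granulosa cells and 0.131 and 0.200 CPM in others (log2 difference 5.23 ± 0.46, adjusted p = 1.36e-04).

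Apoa4 was at 8.35 and 5.32 CPM against 0.131 and 0.300 CPM (5.09 ± 0.50, adjusted p = 2.13e-04). The 4 genes of this cluster, with Apoa5, span 43.3 kb. In the Amh and Inhbb split, Apoa4 was higher in positive cells, at 16.6 against 2.07 CPM and 13.5 against 1.59 CPM (3.01 ± 0.33, adjusted p = 0.00995), and Apoc3 had a log2 difference of 1.80 ± 0.49 (adjusted p = 0.0762; 0.0133 with the library as a block). Of 7 other apolipoprotein genes tested in that split, Apoa4 alone was called higher, and 2, Apoc1 and Apoe, were called lower. Of all genes, 3.99% were called higher there and 2.97% lower. Clu, a lipoprotein-borne chaperone, was higher in granulosa cells (4.57), and Apoe (−1.52) and Apoc2 (1 and 0 UMIs in granulosa cells) were lower.

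Few other clade A serpins were detected. Of 15, 2 were tested, with a median of 1.54, and Serpina3c was higher (1.98 ± 0.37, adjusted p = 0.00335). Serpina3g had 1.09 ± 0.42 (adjusted p = 0.0565; 0.0295 with the library as a block). Of 13 serpins of other clades, 11 were tested, 6 were higher and 2 lower, with a median of 1.47. Serpinb6a, an intracellular inhibitor, was at 5148 and 4615 CPM in granulosa cells (5.32), Serpine2, the protease nexin gene, rose by 3.53 and Serpinb8 by 3.07, while Serping1, the complement C1 inhibitor gene (−3.12), was lower.

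Of 13 serine protease genes, 7 were tested, with a median of 0.65, 0 were higher and F2, the prothrombin gene, was lower, with 0 UMIs in granulosa cells of both libraries. Of 18 other plasma protein genes, 6 were tested, Ahsg was higher (6.80 ± 0.48, adjusted p = 5.62e-05; 183 and 44 UMIs) and 4 were lower, led by Itih2, with 0 UMIs in granulosa cells, and the retinol carrier gene Rbp4 (−5.05). Their median was −2.74, with Itih2 below it also when set at 3 UMIs in each library.

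HDL handling genes were partly raised. Of 15, 11 were tested, 5 were higher and 1 lower, with a median of 0.91. The endothelial lipase gene Lipg had the largest difference (6.54, 119 and 27 granulosa UMIs), ahead of Pcsk6 (4.61), a convertase. Pltp, the phospholipid transfer protein gene, was lower (−2.72). Of 16 genes of protein folding and export from the endoplasmic reticulum, all tested, Uggt1 (1.44), Hspa5 (1.27) and Edem1 (1.14) were higher and 0 lower, with a median of 0.58. Of all genes in this test, 20.9% were called higher and 26.0% lower. The share called higher among these 16 was not above that.

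Of 17 transcription factor genes known from liver, 10 were tested, 3 were higher and 4 lower, with a median of −0.51. Nr5a2, a nuclear receptor that granulosa cells also need, was at 62.2 and 53.1 CPM in granulosa cells and 2.61 and 1.27 CPM in others (5.10 ± 0.31, adjusted p = 3.33e-05), and was higher with Amh and Inhbb (2.54 ± 0.23, adjusted p = 0.00593). It was also among the granulosa markers chosen to check the gate, so its higher level in granulosa cells is no independent result. Nr1h4 (3.98, 17 and 6 UMIs) and Rora (1.63) were the others that were higher. Nr2f2 (−2.31) was among those that were lower, and Hnf4a was too low to be tested.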

How the data were processed

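Per the labels, each library held the RNA of whole-ovary cell suspensions; the authors made UMI counts per gene and cell with Cell Ranger 3.0.2 on GRCm38 and deposited called cells only. The labels and the study's methods differ on the kit version. The members, marker lists, gene lists and both splits were chosen with earlier results of these data known.

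Kept cells had at least 500 genes and at most 10% mitochondrial UMIs. Doublets were marked with Scrublet, at the lower of the 2 libraries' automatic thresholds (0.224), which removed 102 and 93 cells; the own threshold of replicate 2 (0.519) marked 2. Gates required 2 marker UMIs (3 for interstitial and germ cells, with 3 and 2 per 10000). Clusters used scanpy 1.11.5. The deposited counts totalled 54471790 and 59074480 UMIs in 4094 and 4847 cells.

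UMIs were summed per library and cell group and tested with edgeR 4.0.16 (quasi-likelihood, TMM, filterByExpr), with DESeq2 1.42.0 and other settings as alternatives. Cell groups of 1 library come from the same animals and so are paired; library deviations correlated at 0.178 (granulosa against others), 0.301 (Calb1) and 0.396 (Amh and Inhbb) across genes. The test without a block was checked on data simulated without a library effect. At an adjusted p under 0.05 alone, it recovered 52% of 2-fold changes in granulosa against others. The 2-fold threshold of the calls there was not applied in this check. In the Calb1 split it recovered 36%, and in the Amh and Inhbb split 63%. Of 4-fold changes it recovered 100%, 98% and 99%. Genes not called in the splits can therefore still differ by 2-fold. Named genes were the members, up to 3 higher and 2 lower genes by fold per list, 5 per direction per split and the 8 most like the members. Genes were located in GENCODE vM21, and figures used matplotlib 3.10.9. Some named items are not reported here.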

Additional observations from a re-analysis of the deposited data

Results flagged for a closer look

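Member UMIs were also present in cells that passed several gates and so entered no comparison. The 541 such cells of replicate 1 held 116 Serpina1 family UMIs (13.4 CPM) and 57 Apoa1 UMIs (6.57 CPM). The 1165 such cells of replicate 2 held 153 family UMIs (7.80 CPM) and 136 Apoa1 UMIs (6.93 CPM). Of these cells, 386 and 810 passed both the granulosa and the interstitial gate. All 4 counts were flagged because they exceed the 3 UMIs that a count of 0 allows, in data outside the main comparison.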

How the results depend on the processing

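The depth limits Serpina1c and Serpina1e and most values of replicate 2, which had 239 family UMIs in granulosa cells. In granulosa against other gated cells, the counts of genes called stayed within 1.5 times of 3227 higher and 4008 lower except with cells thinned to 2000 UMIs (1466 and 1739). Leaving out Mki67 or Top2a cells and restricting a split to cells with no UMI of the other were alternatives chosen after seeing the data. For Calb1, against 0 and 0 called, DESeq2 called 6 higher and 66 lower, no filter on low counts 92 and 393, the replicate block 228 and 435, the block without Mki67 or Top2a cells 267 and 422, thinning 0 and 1, and cells with no Amh or Inhbb UMI 0 and 1. For Amh and Inhbb, against 481 and 358, thinning gave 163 and 159, no filter 1014 and 1066, a threshold of 1 UMI 30 and 2, the replicate block 1282 and 1349, leaving out Mki67 or Top2a cells 3 and 2, and that with the block 690 and 807. The causes were not tested.

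Apoa1 in the Amh and Inhbb split had the same direction under all 15 alternatives; it lost the call at a threshold of 1 UMI (1.15, adjusted p = 0.152 by edgeR) and without Mki67 or Top2a cells (adjusted p = 0.239), within a range of adjusted p from 2.96e-11 to 0.239. Log2 differences of the opposite sign in that split, none past the threshold, were those of Serpina1a (0.10), Serpina1b (0.0527) and Serpina1d (0.42) without Mki67 or Top2a cells, Serpina1d with the block added (0.15) and in replicate 2 alone (0.42), and Serpina1c (0.0547) and Serpina1d (0.0096) at a threshold of 1 UMI. In the Calb1 split no member changed direction; Serpina1a, Serpina1b and Serpina1d also passed with no filter. The thinned Apoa1 share averaged 11.04% over the libraries, against 38.7%. Leaving out a library in turn left no residual degrees of freedom and so values without a test: family CPM in granulosa cells ran from 35.3 to 286, the share of cells from 13.8% to 52.7%, Apoa1 CPM from 48.0 to 73.6 and its share from 31.1% to 46.2%. Serpina1d ran from −0.28 to 0.42 and Apoa1 from 1.17 to 1.80 in the Amh and Inhbb split. The replicate block changed no other member call than those given with the results.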

Other observations

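Barcodes removed before the comparisons held few member UMIs, with 1 exception. The 356 and 383 cells under the cell filter had 24 and 5 Serpina1 family UMIs and 30 and 7 Apoa1 UMIs. The 102 cells of replicate 1 marked as likely doublets had 248 family UMIs and 76 Apoa1 UMIs, and the 93 of replicate 2 had 1 and 15.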
